A study of Caenorhabditis elegans with 15 samples.

Results

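The genes described here are 9 core genes of DNA replication: mcm-2, mcm-3, mcm-4, mcm-5, mcm-6 and mcm-7, pcn-1, rnr-1 and rnr-2. They were chosen by name, as the MCM helicase, the sliding clamp PCNA and ribonucleotide reductase. No measured value entered that rule, though earlier results of these data were known when it was set. All 9 were found among the 46904 genes of the deposited tables, and all 9 had enough counts to be tested in every comparison. MCM proteins form the ring-shaped helicase that is loaded at origins before S phase and unwinds DNA at the fork. PCNA, encoded by pcn-1, is the ring that holds DNA polymerases on their template, and ribonucleotide reductase makes the deoxyribonucleotides that replication consumes, with rnr-1 encoding its large subunit and rnr-2 its small subunit. In adult hermaphrodites of the nematode Caenorhabditis elegans the somatic cells have stopped dividing, so that DNA is copied in the proliferating germ cells at the distal end of each gonad arm, in germ cells preparing for meiosis and in the embryos carried in the uterus.

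RNA of whole adult worms was sequenced in 15 libraries, 3 for each of 5 genotypes, with an mRNA library kit. The groups are fbf-2 mutants, the triple mutant 3xlnc (genotype label linc-4; linc-29; linc-7), the wild type WT (strain N2), the fbf-1 3xlnc mutant, which carries the fbf-1 mutation together with the linc mutations, and fbf-1 mutants, which are the controls of that strain, so that both groups of the last pair lack normal fbf-1. FBF-1 and FBF-2 are RNA-binding proteins of the PUF family that maintain germline stem cells by repressing target mRNAs, and the linc genes encode long intervening noncoding RNAs. The study set fbf-2 and 3xlnc against WT, and fbf-1 3xlnc against fbf-1. The labels name no alleles, no age beyond adult and no number of worms per library. They do not say either whether the 3 libraries of a genotype are separate cultures, so each p-value reflects spread among these libraries alone, part of which may be technical. The WT, fbf-2 and 3xlnc libraries are labelled total RNA and the fbf-1 and fbf-1 3xlnc libraries polyA RNA in a separate deposit, so genotype and deposit cannot be told apart between these sets. No group of one deposit was tested against a group of the other, and the only test that uses both compares the linc effect of one deposit with that of the other.

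Total counts per library ranged between 18359546 and 23946404 in fbf-2, between 17321508 and 25666906 in 3xlnc, between 9068700 and 20659808 in WT, 28476560 to 30152040 in fbf-1 3xlnc and 21731471 to 38453738 in fbf-1. WT replicate 1 stood apart: it had the lowest total of all 15 libraries, and ribosomal RNA genes took 4.62% of its counts, against 0.516% and 0.976% in WT replicates 2 and 3. Each targeted gene was low or absent in the strains labelled as its mutants. In fbf-2 worms fbf-2 had 6.69 ± 0.601 CPM (CPM, a gene's counts scaled by the library's total counts; SD, n = 3), against 28.7 ± 3.14 CPM in WT. The gene fbf-1 had 8.11 ± 0.289 CPM in fbf-1 and 8.42 ± 0.157 CPM in fbf-1 3xlnc. The 3 linc genes had 0 counts in every 3xlnc and fbf-1 3xlnc library. In fbf-2 against WT, fbf-1 was called higher (log2 fold change 0.78, adjusted p 0.00322 in edgeR) and linc-7 lower (-0.86, adjusted p 0.04 in edgeR). WT replicate 1 had 77.0 CPM of linc-7, against 37.9 and 39.6 CPM in WT replicates 2 and 3. Whole worms hold every tissue: all 20 germ cell, 13 oocyte, 12 muscle, 13 intestine, 12 epidermis and 12 neuron marker genes were counted in every library. The 9 genes are known to act in dividing germ cells, and these libraries do not separate those cells from embryos or soma. In RNA of whole worms, fewer cells of a type and less RNA per cell cannot be told apart.

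The 9 genes lie on 5 chromosomes of the WBcel235 genome, as annotated by Ensembl. The helicase gene mcm-2 lies on chromosome II from 12001509 to 12006625 on the minus strand. The genes mcm-3 (15056719 to 15059599, minus strand) and mcm-7 (4347166 to 4349768, plus strand) lie on chromosome V, and mcm-4 lies on chromosome I from 2318291 to 2321817 on the minus strand. Chromosome III holds mcm-5 (4288264 to 4291266, minus strand), mcm-6 (9794367 to 9798644, plus strand), rnr-1 (9225339 to 9228798, minus strand) and rnr-2 (4093308 to 4094921, minus strand), and pcn-1 lies on chromosome IV from 4047937 to 4049448 on the minus strand. Exons of mcm-4 share 15 bases, 0.574% of its exon length, with the antisense gene ekl-7, which had 20463 counts over the 15 libraries, against 94241 for mcm-4. The sources used here do not say whether the authors' counting used strand, so reads in that overlap are uncertain. The overlaps of mcm-2, mcm-3, mcm-6, mcm-7 and rnr-2 with antisense neighbours involved genes with 23 to 340 counts in all. The authors' deposited table marks 7 of the 9 genes as germline-enriched (all but mcm-3 and rnr-1), against 6.52% of all genes and 19.1% of the 13401 tested in fbf-2 against WT, and 7 of the 9 as bound by FBF-2 (all but mcm-2 and mcm-5), against 4.3% of all genes and 13.8% of those tested. The sources used here do not say how those marks were set.

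All 9 genes were abundant. Per kilobase of exon they stood between the 93.9th and 98.7th percentile of the 19008 protein-coding genes with counts, whichever genotype was read. The clamp gene pcn-1 and the small-subunit gene rnr-2 had the highest levels per kilobase in each genotype: rnr-2 had 443 ± 24 CPM per kb in fbf-2, 272 ± 12.5 in 3xlnc, 343 ± 73.7 in WT, 343 ± 37.5 in fbf-1 3xlnc and 358 ± 16.7 in fbf-1 (SD, n = 3 each). For pcn-1 the values were 424 ± 36.4, 291 ± 6.43, 352 ± 24.7, 325 ± 19.5 and 347 ± 28.4 CPM per kb in the same order of genotypes, and the ranges of the pair overlapped in every genotype. Next came mcm-7, the most abundant MCM gene, at 165 to 209 CPM per kb over the genotype means, then the large-subunit gene rnr-1 at 143 to 184, and mcm-7 and rnr-1 overlapped in fbf-2 and in WT. The genes mcm-2, mcm-3, mcm-5 and mcm-6 followed closely, with genotype means from 100.8 to 142 CPM per kb, and most neighbours among them had overlapping ranges. The gene mcm-4 had the lowest mean in each genotype, at 90.2 to 110 CPM per kb. Its range was apart from that of the gene next in mean each time, but overlapped that of mcm-2 in fbf-2 and in WT. The transcripts of pcn-1 and rnr-2 were thus measured at more than the level of any MCM transcript per kilobase.

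Across genotypes, 3xlnc had the lowest mean CPM of the 5 for each of the 9 genes. Added over the 9 genes, the level was 3611, 3660.2 and 3641 CPM in the fbf-2 libraries, 2793, 2815 and 2779 CPM in 3xlnc, 3243, 3132 and 3492 CPM in WT, 3159, 3497 and 3593 CPM in fbf-1 3xlnc, and 3308, 3349.7 and 3592 CPM in fbf-1. On this scale every 3xlnc library lay below every other library and every fbf-2 library above all others, while the remaining genotypes overlapped. On TMM-scaled CPM the 3xlnc libraries, at 2639 to 2830.1, were again below all others, but the fbf-2 libraries, at 3344.5 to 3515, lay within the range of WT (2990.1 to 3583) and below the highest libraries of fbf-1 3xlnc (3774) and fbf-1 (3869.5). The spread also differed: the coefficient of variation over a genotype's libraries ran from 1.55% to 4.6% over the 9 genes in 3xlnc, from 1.06% to 8.98% in fbf-2, from 4.43% to 21.5% in WT, from 3.83% to 10.9% in fbf-1 3xlnc and from 2.83% to 8.18% in fbf-1. The widest was rnr-2 in WT.

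**Figure D1:**
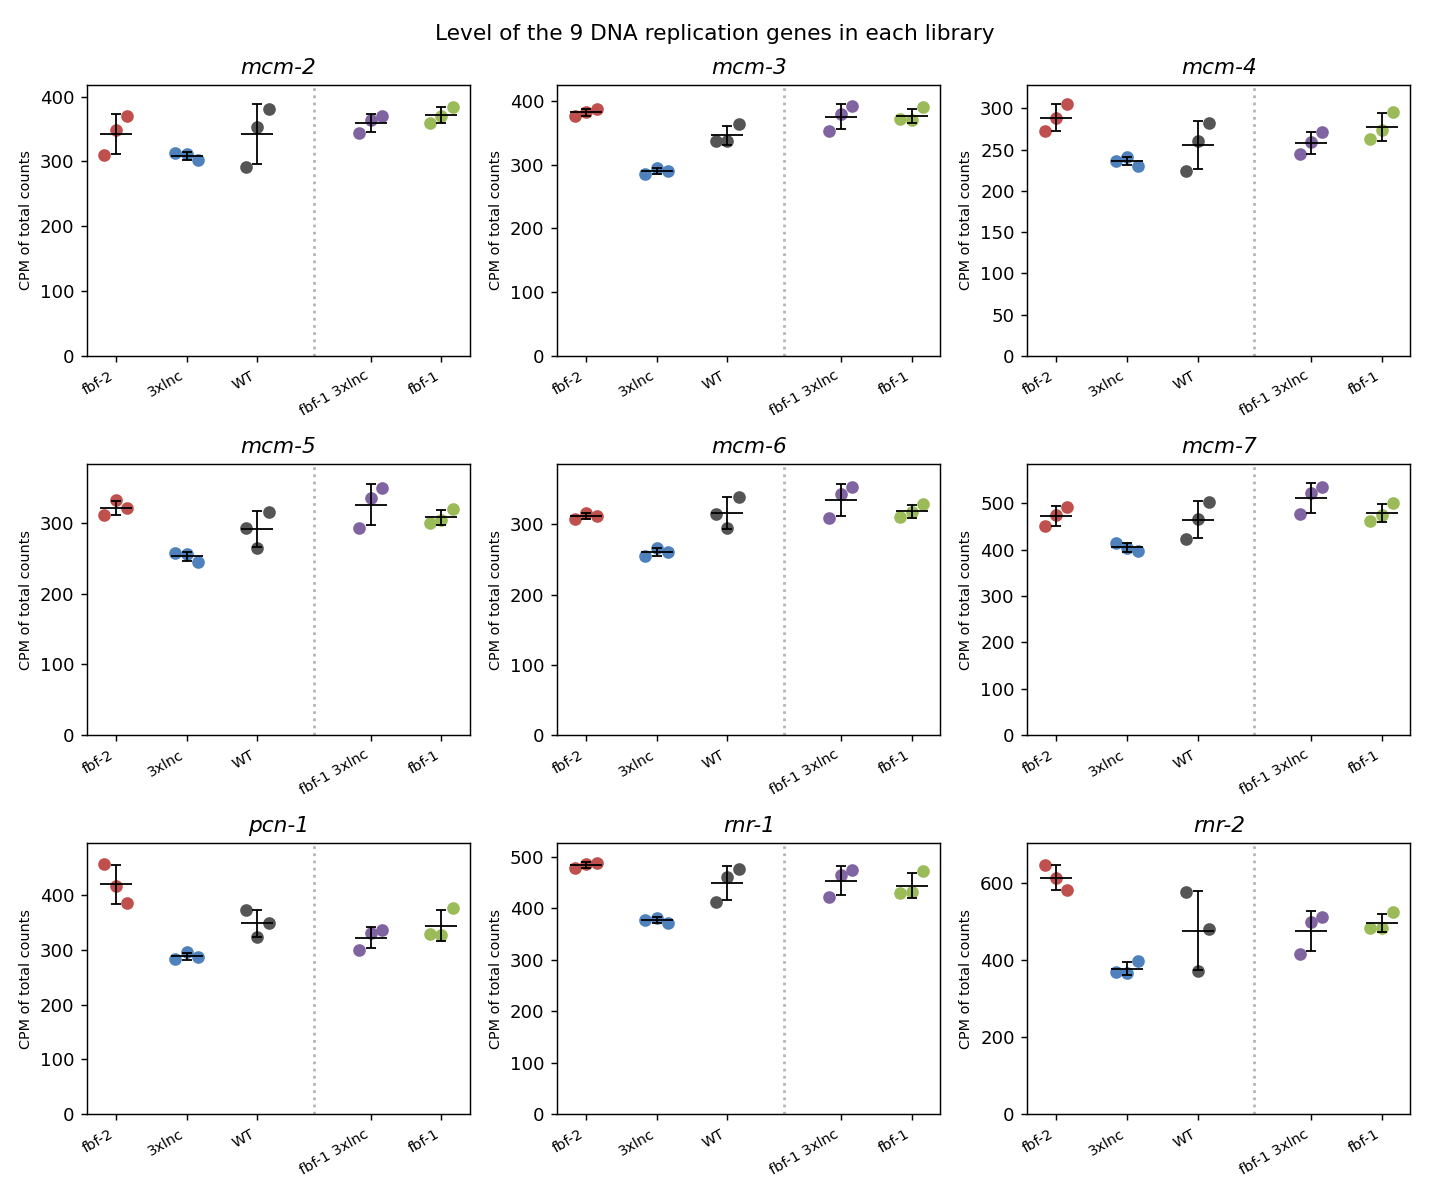
CPM of total counts of each gene (vertical axis, from 0) in the libraries of fbf-2, 3xlnc and WT, left of the dotted line, and of fbf-1 3xlnc and fbf-1, deposited separately, right of it. Points are libraries in order of their number, and black marks are the mean and SD of 3 libraries. The 3xlnc points are low and close together in each panel, and rnr-2 spreads from 371 to 575 CPM in WT.

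The comparison of 3xlnc against WT asks what loss of the linc genes does in otherwise wild-type worms. The 9 genes lay lower in 3xlnc by small amounts, yet none passed an adjusted p of 0.05 with edgeR's quasi-likelihood test (Benjamini-Hochberg over 13861 genes). The background of this comparison was 11.5% of genes called in either direction, and 2.11% called lower. All 9 log2 fold changes were negative, from -0.36 for rnr-2 to -0.16 for mcm-4, with a median of -0.29, against a median of -0.017 over all genes tested. Their adjusted p-values in edgeR ran from 0.0584 for pcn-1 to 0.393 for mcm-4. On CPM of total counts, 6 of the 9 genes (mcm-3, mcm-5, mcm-6, mcm-7, pcn-1 and rnr-1) had each 3xlnc library below each WT library, which 10.6% of all genes tested did. On CPM scaled by TMM, the scaling of the fits, 6 of 9 did, with rnr-2 in place of mcm-7, and 15.8% of all genes.

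Among the helicase genes, mcm-3 had 285, 295 and 289.7 CPM in 3xlnc libraries, against 337, 337 and 364 CPM in WT libraries. The groups were apart, with a log2 fold change of -0.29 ± 0.097 (SE). The gene mcm-6 had 255, 266 and 261 CPM in 3xlnc, against 315, 295 and 339 CPM in WT, again apart, and its log2 fold change was -0.32 ± 0.095 with an adjusted p of 0.0599 in edgeR. For mcm-5 the 3xlnc libraries had 258, 256 and 246 CPM and the WT libraries 293, 265 and 316 CPM, and for mcm-7 415, 404 and 396 CPM in 3xlnc stood against 424, 467 and 503 CPM in WT. WT replicate 1 was what made mcm-2 and mcm-4 overlap. It had 291 CPM of mcm-2, less than the 314, 311 and 302 CPM of the 3xlnc libraries, whereas WT replicates 2 and 3 had 354 and 381 CPM. It had 224 CPM of mcm-4, against 236, 240.5 and 230.5 CPM in 3xlnc and 260.1 and 282 CPM in the other WT libraries.

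The clamp gene pcn-1 had 283, 296 and 287 CPM in 3xlnc, against 373, 324 and 348 CPM in WT, with a log2 fold change of -0.31 ± 0.091 (SE). The large-subunit gene rnr-1 had 378, 382 and 370.2 CPM in 3xlnc, against 412, 459.7 and 476 CPM in WT, a log2 fold change of -0.30 ± 0.11. The small-subunit gene rnr-2 had 369.9, 365 and 397 CPM in 3xlnc and 575, 371 and 481 CPM in WT, a log2 fold change of -0.36 ± 0.13. Here WT replicate 2 was as low as the mutant libraries, and WT replicate 1 was the highest. WT replicate 1 thus ran low for mcm-2, mcm-4, mcm-7 and rnr-1 and high for pcn-1 and rnr-2 within its own group.

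Leaving out WT replicate 1 changed the calls: all 9 genes then passed in edgeR as lower in 3xlnc, with log2 fold changes of -0.41 (rnr-1) to -0.26 (rnr-2) and adjusted p-values of 0.00156 to 0.0369, and 16.4% of the 14165 genes tested were called lower. Leaving out WT replicate 2 left rnr-2 passing (log2 fold change -0.45, adjusted p 0.0416 in edgeR), and each other omission left none. The share of all genes called lower without WT replicate 2 is not given here. The authors' deposited table calls 4 of the 9 lower in 3xlnc: mcm-3 (log2 fold change -0.3162, adjusted p 0.04491), mcm-6 (-0.339, 0.02465), pcn-1 (-0.3268, 0.009185) and rnr-2 (-0.3788, 0.04756). How many of all genes that table calls lower was not counted here, so these calls stand without their background. With TMM factors taken over the germline-enriched genes, the 9 log2 fold changes stayed negative with a median of -0.18 and none passed.

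Other gene lists moved beside them in 3xlnc against WT. Of 20 germ cell markers 19 had a negative log2 fold change and none passed (median -0.25), and the list's summed level was 9001 to 9797 CPM in 3xlnc, against 9298 to 12154 CPM in WT. Of 20 mitosis genes, 3 fell (mdf-2, cdk-1 and fzy-1) and all 20 estimates were negative (median -0.28), and of 13 oocyte genes 1 fell (egg-3). The epidermis list had 5 of 12 genes higher and the muscle list 3 of 12, and 25 of the 28 sperm protein (msp) genes tested rose, where 9.41% of all genes did. The summed muscle level was 12665 to 13750.5 CPM in 3xlnc, against 7508 to 10316 CPM in WT, and the summed sperm protein level was 430.2 to 600.4 CPM, against 226 to 338 CPM. Among the markers of zygotic genes in early embryos 4 of 13 tested fell, and their summed level was 117 to 148 CPM in 3xlnc, against 172 to 189.7 CPM in WT. The part of these tissues in the level of the 9 genes was not tested. The sum of the 9 genes divided by that of the germ cell markers was 0.300 ± 0.012 in 3xlnc and 0.307 ± 0.046 in WT (SD, n = 3 each), a difference smaller than the spread between libraries. The WT libraries had 0.349, 0.258 and 0.315. In fbf-2 the ratio was 0.327 to 0.340, above the 0.287 to 0.310 of 3xlnc and within the range of WT.

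**Figure D2:**
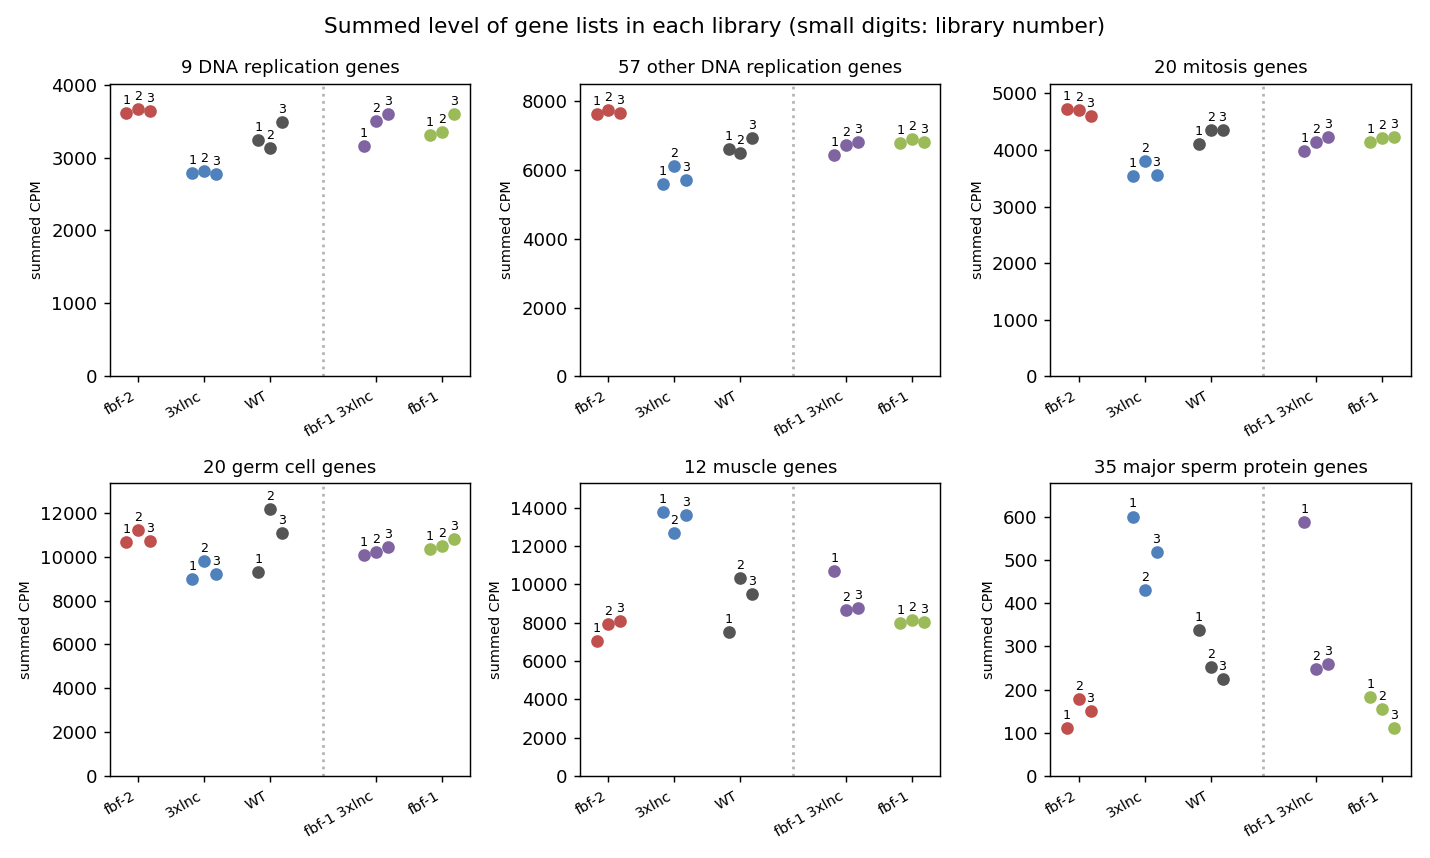
Summed CPM of total counts (vertical axes, from 0) of the 9 genes and of 5 other gene lists in each library, by genotype in the same order, with fbf-1 3xlnc and fbf-1 right of the dotted line. The 9 genes, the other replication genes and the mitosis genes are lowest in 3xlnc and, on this scale, highest in fbf-2. On TMM-scaled CPM the fbf-2 libraries overlap those of WT and of fbf-1 in each of these lists. The muscle list is highest in 3xlnc, and the sperm protein list is highest in 3xlnc and the first fbf-1 3xlnc library.

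In fbf-2 against WT, none of the 9 genes passed in edgeR either, where 15.6% of 13401 genes were called, 5.51% higher and 10.1% lower. The log2 fold changes ran from -0.15 (mcm-6) to 0.25 (rnr-2), with a median of 0.013 (-0.064 and -0.066 under upper-quartile scaling and TMM over germline-enriched genes), against a median of -0.037 over all genes. With the replicate block, 4414 genes (32.9%) were called and none of the 9. The genes rnr-2 and pcn-1 had the highest estimates and were the 2 whose groups did not overlap on TMM-scaled CPM (17.8% of all genes were apart and higher on that scale). On CPM of total counts mcm-3 and rnr-1 were apart and higher as well, as were 24.7% of all genes. The gene rnr-2 had 647, 613 and 580.4 CPM in fbf-2 libraries, against 575, 371 and 481 CPM in WT libraries, with a log2 fold change of 0.25 ± 0.13 (SE) and an adjusted p of 0.225 in edgeR. Without WT replicate 1 it was the 1 gene of the 9 to pass, as higher in fbf-2 (log2 fold change 0.37, adjusted p 0.0214 in edgeR), where 18.4% of all genes did. The gene pcn-1 had 457, 418 and 385 CPM in fbf-2, against 373, 324 and 348 CPM in WT, with a log2 fold change of 0.14 ± 0.097 and an adjusted p of 0.34 in edgeR.

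The MCM genes spread around no change in this comparison. The gene mcm-3 had 376, 383 and 387 CPM in fbf-2, against 337, 337 and 364 CPM in WT, a gap between the groups, yet its log2 fold change was 0.013 ± 0.11. On the TMM-scaled CPM of the fit, the mcm-3 groups overlapped. Taken over all 15 libraries, the TMM factors were 1.04 to 1.09 in fbf-2 and 0.947 to 1.08 in WT. The fit took its own factors from its 6 libraries, and those are not given here. The gene mcm-2 had 309, 349 and 370.1 CPM in fbf-2 and 291, 354 and 381 CPM in WT, and mcm-6 had 308, 317 and 312 CPM in fbf-2 and 315, 295 and 339 CPM in WT. Both overlapped. The 95% confidence intervals of the 6 MCM genes and rnr-1 lay between -0.49 and 0.36 on the log2 scale.

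The largest contrast within one deposit lay between both mutants. In fbf-2 against 3xlnc, 7 of the 9 genes passed as higher in fbf-2 in edgeR, where 26.6% of 14045 genes were called higher and 60.8% in either direction. Their median log2 fold change was 0.24 (from 0.096 under upper-quartile scaling and 0.049 under TMM over germline-enriched genes to 0.33 under RLE scaling), against -0.10 over all genes. This comparison uses the same fbf-2 and 3xlnc libraries as the comparisons with WT, so it is not independent of them. The small-subunit gene rnr-2 rose most, at 647, 613 and 580.4 CPM in fbf-2 and 369.9, 365 and 397 CPM in 3xlnc, a 1.51-fold difference (log2 fold change 0.60 ± 0.069, adjusted p 2.21e-05 in edgeR). The clamp gene pcn-1 followed with 457, 418 and 385 CPM in fbf-2 and 283, 296 and 287 CPM in 3xlnc, a 1.35-fold difference (log2 fold change 0.44 ± 0.070, adjusted p 0.0002 in edgeR). Each fbf-2 library lay above each 3xlnc library for both genes. The groups were apart in this way for 8 of the 9 genes on CPM of total counts (34.3% of all genes) and for 7 on TMM-scaled CPM (29.4%).

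The other genes differed less. The large-subunit gene rnr-1 had 478, 486 and 488 CPM in fbf-2 and 378, 382 and 370.2 CPM in 3xlnc (log2 fold change 0.26 ± 0.068, adjusted p 0.00525 in edgeR). Of the helicase genes, mcm-3 had 376, 383 and 387 CPM in fbf-2 and 285, 295 and 289.7 CPM in 3xlnc (0.30 ± 0.065, adjusted p 0.00185 in edgeR), and mcm-5 had 312, 332 and 322 CPM in fbf-2 and 258, 256 and 246 CPM in 3xlnc (0.24 ± 0.069, adjusted p 0.00802 in edgeR). Without 3xlnc replicate 3 mcm-5 did not pass (0.21, adjusted p 0.0507 in edgeR). The genes mcm-4 (0.19 ± 0.075, adjusted p 0.0421) and mcm-6 (0.16 ± 0.063, adjusted p 0.0448) passed narrowly in edgeR, and each lost its call when any of the 3 3xlnc libraries was left out, mcm-6 also without fbf-2 replicate 2. The genes mcm-7 (0.12 ± 0.076, adjusted p 0.188) and mcm-2 (0.049 ± 0.085, adjusted p 0.635) did not pass in edgeR. The interval of the rnr-2 log2 fold change, 0.45 to 0.75, lay above those of mcm-2, mcm-3, mcm-4, mcm-5, mcm-6, mcm-7 and rnr-1, whose upper bounds were 0.23 to 0.44.

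How many of these rises were called depended on the scaling. With upper-quartile scaling, or with TMM factors over germline-enriched genes, 2 of the 9 genes passed in edgeR, rnr-2 (log2 fold change 0.40 under the second scaling) and pcn-1 (0.24), where 17.8% of all genes were called higher under the first and 14.5% under the second. Under the second, mcm-4 and mcm-6 turned to -0.0058 and -0.036. The median over all genes was -0.10 in the fit and -0.25 and -0.30 under those scalings. The genes marked as germline-enriched had a median log2 fold change of 0.25 in the same fit as the 9 genes (2707 tested, 55.0% called higher). In the same comparison 28 of 28 major sperm protein genes, 12 of 12 epidermis genes and 11 of 12 muscle genes fell in fbf-2 relative to 3xlnc (34.2% of all genes did), with a summed muscle level of 7051 to 8061 CPM in fbf-2 and 12665 to 13750.5 CPM in 3xlnc. Their part in the difference of the 9 genes was not tested.

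**Figure D3:**
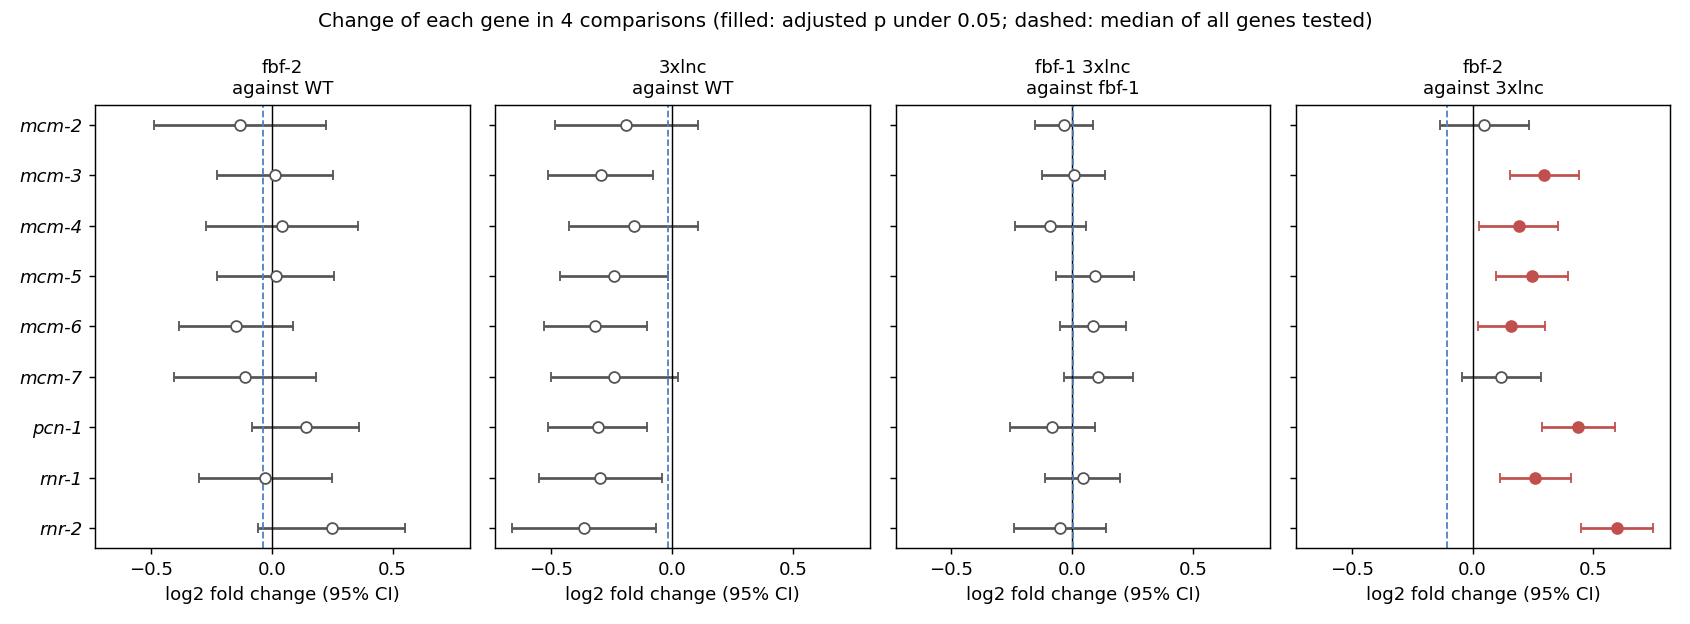
Log2 fold change (horizontal axis) with its 95% confidence interval for each gene in 4 comparisons of 3 libraries against 3, filled where edgeR's adjusted p was under 0.05. The dashed line is the median of all genes tested. Filled points stand in fbf-2 against 3xlnc, for 7 of 9 genes, and in no other panel.

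**Figure D4:**
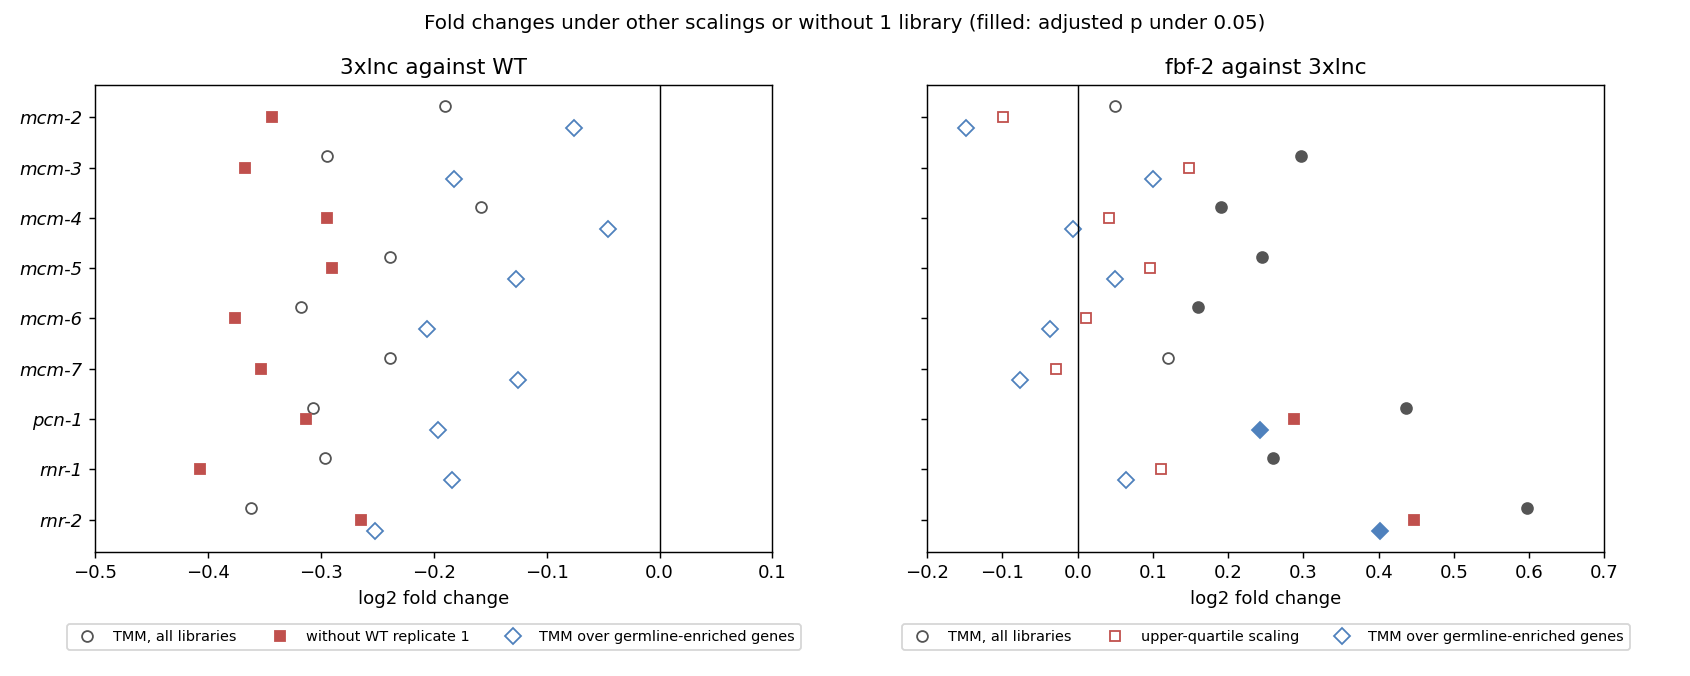
Log2 fold change (horizontal axis) of each gene in 3xlnc against WT and in fbf-2 against 3xlnc under 3 settings each, filled where edgeR's adjusted p was under 0.05. All 9 points are filled without WT replicate 1 on the left, and rnr-2 and pcn-1 alone stay filled under both other scalings on the right.

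In the fbf-1 background the estimates for the 9 genes lay close to 0. In fbf-1 3xlnc against fbf-1 none of the 9 passed in edgeR, where 17.9% of 14104 genes were called. The log2 fold changes ran from -0.091 (mcm-4) to 0.11 (mcm-7), with a median of 0.0055, against 0.0028 over all genes, and their 95% intervals lay between -0.26 and 0.26. The groups overlapped for all 9 genes, where 17.7% of all genes were apart and higher and 21.2% apart and lower on CPM of total counts. The gene rnr-2 had 416, 498 and 512 CPM in fbf-1 3xlnc and 483, 484 and 523 CPM in fbf-1. The clamp gene pcn-1 had 301, 330.3 and 337 CPM in fbf-1 3xlnc and 329.7, 326 and 377 CPM in fbf-1. The gene mcm-5 had 294, 336 and 349 CPM in fbf-1 3xlnc and 300.1, 305 and 321 CPM in fbf-1.

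The first fbf-1 3xlnc library was the lowest of its group for every one of the 9 genes. In that library the summed sperm protein level was 586 CPM, against 249 and 259 CPM in the other fbf-1 3xlnc libraries, and the summed muscle level 10713 CPM, against 8640.5 and 8766 CPM. Without it, mcm-5 passed as higher in fbf-1 3xlnc (log2 fold change 0.17, adjusted p 0.0327 in edgeR) and the other 8 genes did not, where 9.51% of all genes were called higher. The part of those tissues in the lower level was not tested.

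The linc effect in the fbf-1 background minus the linc effect in WT was positive for all 9 genes, from 0.082 (mcm-4, -0.013 under TMM over germline-enriched genes) to 0.42 (mcm-6) on the log2 scale, with a median of 0.32 against 0.036 over all genes. None passed in edgeR, where 6.2% of 14772 genes did, and the smallest adjusted p was 0.06 for mcm-6 (difference 0.42 ± 0.12, SE). DESeq2 called mcm-6 (adjusted p 0.0111), and the share of all genes it called is not given here. Without WT replicate 1, 6 of the 9 passed as higher (mcm-2, mcm-3, mcm-5, mcm-6, mcm-7 and rnr-1), where 10.4% of genes did. Without the first fbf-1 3xlnc library, mcm-5 and mcm-6 passed as higher, where 3.06% of genes did. This difference rests on the same libraries as the pair of linc comparisons, and on the assumption that effects within each deposit are comparable.

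A wider list of 57 other replication genes, all tested, was read beside the 9. In 3xlnc against WT, 4 fell (2.11% of all genes did) and none rose, and all 57 estimates were negative (median -0.24). Without WT replicate 1, 43 were called lower (16.4% of all genes), and under TMM over germline-enriched genes none was called. Those that fell were tyms-1, thymidylate synthase (log2 fold change -0.46 ± 0.10), asfl-1, a histone chaperone of the ASF1 family (-0.43), orc-2, an origin recognition complex subunit (-0.37), and cdc-6, an origin licensing factor (-0.29). In fbf-2 against WT, 6 rose (5.51% of all genes did) and none fell, with a median of 0.11. With the replicate block 16 were higher (15.5% of all genes) and 1 lower, without WT replicate 1 16 were higher (18.4% of all genes) and 3 lower, and under TMM over germline-enriched genes 1 was higher. Named by the smallest adjusted p, they include tyms-1 (0.44), orc-4 of the origin recognition complex (0.41), F12F6.7 (0.41), the helicase-activating kinase gene cdc-7 (0.37) and the E2F-like factor gene efl-1 (0.34). In fbf-1 3xlnc against fbf-1, pole-1, the catalytic subunit of DNA polymerase epsilon, rose (0.15), and crn-1, the flap endonuclease (-0.18), chaf-1 of chromatin assembly factor (-0.16) and orc-5 (-0.14) fell. These were 1 and 3 of 57 genes, where 9.43% of all genes rose and 8.49% fell.

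In fbf-2 against 3xlnc, 44 of the 57 rose (26.6% of all genes did) and none fell, with a median of 0.36. By role, the nucleotide supply genes had the highest median: all 3 rose, with a median log2 fold change of 0.86 and dut-1, dUTPase, the lowest of them at 0.42. The gene dhfr-1, dihydrofolate reductase, had 0.86 ± 0.089 (adjusted p 1.01e-05 in edgeR) and tyms-1 0.90 (adjusted p 1.57e-05 in edgeR). Of 10 helicase-activation genes 8 rose (median 0.56), of 8 origin licensing genes 7 rose (median 0.37), of 9 clamp-loading and single-strand-binding genes 8 rose (median 0.34), and all 4 chromatin assembly genes rose (median 0.44). DNA polymerase and primase genes stood lower, with 3 of 8 rising and a median of 0.15. Upper-quartile scaling and TMM over germline-enriched genes reduced the count of 44 that rose, to 33 under the first and 27 under the second (17.8% and 14.5% of all genes were higher), with 1 gene lower under each. The interaction called 2 of the 57, orc-2 (0.48) and lig-1, DNA ligase (0.40), both higher, where 2.54% of all genes were.

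The 9 genes varied together over the 15 libraries, but not evenly. Pearson correlations of their log2 CPM are descriptions here, because the libraries share genotype, deposit, depth and composition. Among the 15 pairs of MCM genes the median was 0.90, and from 0.76 to 0.96 in range. The large-subunit gene rnr-1 correlated with each MCM gene at 0.84 or above, whereas the small-subunit gene rnr-2 correlated with mcm-2 at 0.24 and with mcm-7 at 0.42, and with pcn-1 at 0.90. With each genotype centred at its mean, rnr-1 and rnr-2 correlated at 0.019, rnr-2 and mcm-2 at -0.19, and mcm-4 and mcm-7 at 0.98. The value of 0.019 pools unlike genotypes. On CPM of total counts, rnr-1 and rnr-2 ranked the libraries alike in fbf-1 3xlnc and fbf-1, and in reverse order in fbf-2 and 3xlnc. In WT, replicate 1 was the lowest for rnr-1 (412 CPM) and the highest for rnr-2 (575 CPM). The part of the WT libraries in that value was not tested. The ratio of rnr-2 to rnr-1 in CPM was 1.35, 1.26 and 1.19 in fbf-2 libraries and 0.979, 0.957 and 1.07 in 3xlnc libraries. In WT libraries it was 1.40, 0.807 and 1.01. It was 0.986, 1.07 and 1.08 in fbf-1 3xlnc and 1.13, 1.12 and 1.11 in fbf-1. Over 3 libraries a genotype, the ratio of these transcripts was thus nearly constant in fbf-1 and most variable in WT. In WT the extremes were replicate 1 (1.40) and replicate 2 (0.807). Whether spread differed between genotypes was not tested.

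**Figure D5:**
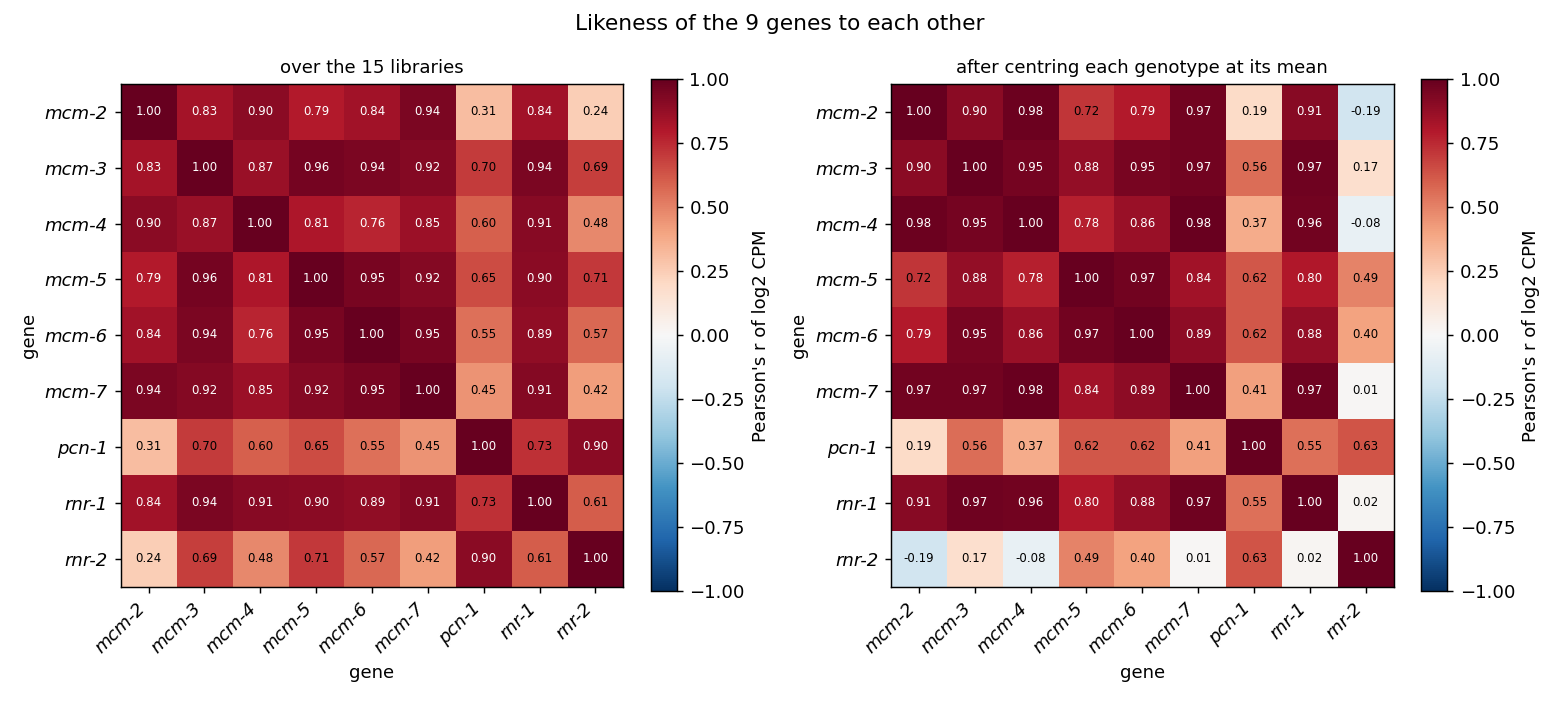
Pearson's r of log2 CPM between the 9 genes over the 15 libraries (left) and after each genotype was centred at its mean (right), on a color scale from -1 to 1. The MCM genes and rnr-1 form a block of high values, and rnr-2, with pcn-1 next to it, stands off: rnr-2 and rnr-1 have 0.61 on the left and 0.019 on the right. The spread of rnr-2 was widest in WT, and its part in these values was not tested.

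Among 10348 other genes with a mean of at least 50 counts, those whose log2 CPM followed the mean of the 9 most closely over the 15 libraries were puf-5 (Pearson's r 0.985), an RNA-binding protein gene of oocytes, nasp-2 (0.968), the egg surface receptor gene egg-1 (0.966), hmp-2, a beta-catenin gene (0.964), nop-1 (0.964), mig-5, a Dishevelled gene (0.963), czw-1 of the kinetochore (0.960) and puf-7 (0.957). The authors' deposited table marks all 8 as germline-enriched. The median r was 0.69 for the 57 other replication genes, 0.75 for the mitosis genes, 0.66 for the germ cell genes and 0.13 for all ranked genes.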

How the data were processed

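The authors deposited raw counts per gene for 15 libraries in 3 tables, per the file headers; per the submitters' processing notes, the build was WBcel235 and the tools were STAR 2.7.9a, featureCounts, Subread 2.0.1 and DESeq2 1.34.0. The sources used here do not state the strand setting, the annotation release or the handling of multiply mapped reads. The authors' deposited table also holds log2 fold changes, adjusted p-values and gene flags, copied where named. A further 18 columns of normalized per-sample values were not used. Columns of fbf-1 3xlnc were tied to the genotype only, since their numbers fit more than a single sample's labels. Identifiers were matched to the Ensembl annotation (46817 of 46904).

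Counts were tested in R 4.3.3 with edgeR 4.0.16: filterByExpr, TMM, glmQLFit and glmQLFTest on the 6 libraries of each comparison (12 for the difference between backgrounds), with Benjamini-Hochberg adjustment over all genes tested and a threshold of 0.05. SE is the log2 fold change divided by the square root of F. The fit was tested on simulated data. Levels are CPM of total counts, or per kb of exon. Alternatives used limma 3.58.1 and DESeq2 1.42.0. Same-numbered fbf-2 and WT libraries deviated together (correlations 0.36, 0.25 and 0.17), which pairs them by the rule used, from the data and not the labels. Same-numbered 3xlnc and WT libraries did not (0.0003, 0.052 and -0.059). The main fits, also that of fbf-2 against WT, had no replicate block, so their values ignore that pairing. The check was not made for fbf-1 3xlnc and fbf-1 libraries. The 9 genes, the gene lists, the tests and the alternatives were chosen with earlier results of these data known. Named genes are the 9 members, up to 5 genes with the smallest adjusted p of each list, the 8 most alike in pattern, and the targeted genes.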

Additional observations from a re-analysis of the deposited data

How the results depend on the processing

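Counts below are genes with an adjusted p under 0.05, given for all genes tested, for the 9 genes and for the 57 other replication genes; the cause of each shift was not tested. In fbf-2 against WT (2095, 0 and 6 genes), fitting all 3 genotypes of the deposit gave 3432 and 10 for all genes and other replication genes, the replicate block, which pairs these libraries, gave 4414 and 17, and upper-quartile scaling and TMM over germline-enriched genes each gave 1 other replication gene. The block left none of the 9 called in either comparison with WT. Of all calls 35.2% were higher in fbf-2, against 21.1% under upper-quartile scaling, 19.9% under TMM over germline-enriched genes, 47% with the block and 45.9% in DESeq2. For mcm-3, mcm-4 and mcm-5, which were not called, the log2 fold change turned to -0.064, -0.034 and -0.060 under upper-quartile scaling and to -0.066, -0.036 and -0.063 under TMM over germline-enriched genes, and for rnr-1 to 0.0060 under RLE scaling, 0.0053 with no filter and 0.0058 in DESeq2. In 3xlnc against WT (1596, 0 and 4), DESeq2 called 3 of the 9 and 11 others, the fit of all 3 genotypes 4 and 20, and the others numbered 1 under upper-quartile scaling, 0 under TMM over germline-enriched genes and 1 with the replicate block. The shares of all genes called lower in DESeq2 and with all 3 genotypes are not given here, so those counts lack a background. Of all calls 81.7% were higher, against 92.4% under upper-quartile scaling, 94.4% under TMM over germline-enriched genes, 71.4% in DESeq2 and 64.7% with all 3 genotypes. In fbf-2 against 3xlnc (8534, 7 and 44), upper-quartile scaling and TMM over germline-enriched genes left 2 of the 9, and the second left 28 others; the log2 fold change of mcm-2 and mcm-7 turned to -0.10 and -0.029 under the first, and of mcm-2, mcm-4, mcm-6 and mcm-7 to -0.15, -0.0058, -0.036 and -0.077 under the second. Of all calls 43.7% were higher in fbf-2, against 29.9% under upper-quartile scaling and 24.6% under TMM over germline-enriched genes. The replicate numbers of these mutants do not pair the libraries (correlations -0.15, -0.11 and -0.098). With the replicate block 5 of the 9 passed as higher in fbf-2, where 24.4% of all genes did. In the difference between backgrounds (916, 0 and 2), DESeq2 called 1 of the 9 and 4 others, again without a background given here. Under upper-quartile scaling, under TMM over germline-enriched genes and with no filter 1 other was left, and mcm-4 turned to -0.013 under TMM over germline-enriched genes. An alternative chosen after seeing the data took TMM over germline-enriched genes and left out WT replicate 1. It gave 4961, 3 and 16 calls in fbf-2 against WT, where mcm-2, mcm-6 and mcm-7 passed as lower and mcm-3, mcm-4 and mcm-5 turned to -0.11, -0.15 and -0.090, 4073, 3 and 11 in 3xlnc against WT (mcm-3, mcm-6 and rnr-1 lower), and 2583, 4 and 12 in the difference. Leaving out 1 library at a time gave 698 to 5003, 0 to 1 and 0 to 19 calls in fbf-2 against WT, 395 to 4764, 0 to 9 and 0 to 43 in 3xlnc against WT, 1140 to 2720, 0 to 1 and 0 to 4 in fbf-1 3xlnc against fbf-1, 7373 to 8581, 4 to 8 and 41 to 53 in fbf-2 against 3xlnc, and 545 to 2763, 0 to 6 and 1 to 16 in the difference; the highest counts in both comparisons with WT came without WT replicate 1. Uncalled genes then changed sign in fbf-2 against WT (mcm-3 -0.030 to 0.084, mcm-4 -0.063 to 0.15, mcm-5 -0.012 to 0.11, rnr-1 -0.11 to 0.049) and in fbf-1 3xlnc against fbf-1 (mcm-2 -0.062 to 0.012, mcm-3 -0.022 to 0.052, pcn-1 -0.13 to 0.0094, rnr-2 -0.097 to 0.043). On TMM-scaled library sizes the summed level of the 9 genes was 3405 CPM in fbf-2 and 2728 CPM in 3xlnc, against 3637 and 2796 CPM of total counts. With 3 libraries a group, the width of the intervals limits what could be told apart.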
